A study of Homo sapiens with 12 samples.

Results

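The p53 pathway and the CDK inhibitors were followed through 9 genes in 2 human neuroblastoma cell lines treated with Erastin, a small molecule that blocks the cystine/glutamate antiporter and is used to start ferroptosis, an iron-dependent form of cell death. The members were chosen by symbol: CDKN1A, CDKN1B, CDKN2A, CCND1, MDM2, TP53I3, TP53INP1, GADD45A and BTG2, which are 9 of the 58735 gene names counted. KELLY, an established MYCN-amplified line, was given 1 µM Erastin, and SK-N-AS, an established line without MYCN amplification, was given 2 µM. Controls of both lines received DMSO, the solvent, and the 4 groups of 3 samples were all taken at 24 h. Each group is 1 line at 1 dose, so the line and the dose cannot be told apart, and in bulk RNA fewer cells expressing a gene and less RNA per cell cannot be told apart either.

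The p53 protein is a transcription factor that is kept scarce by MDM2, a ubiquitin ligase which p53 itself switches on. When p53 is active it raises CDKN1A, which encodes p21, an inhibitor of cyclin-dependent kinases that holds cells before S phase, together with damage and growth-arrest genes such as GADD45A, BTG2, TP53I3 and TP53INP1. CDKN1A is also raised without p53 by several stress pathways. CDKN1B encodes p27, a close relative of p21, whereas CDKN2A encodes p16INK4a, which blocks CDK4 and CDK6, and from another first exon ARF, which restrains MDM2. CCND1 encodes cyclin D1, the partner of CDK4 and CDK6 that these inhibitors oppose. CCND1, CDK4 and the p53 axis are long-standing subjects in neuroblastoma.

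RefSeq promoter entries (GRCh38.p14) were found for 6 of the 9 members, those of CDKN1A, CDKN1B, CDKN2A, MDM2, TP53I3 and BTG2. The 250 bases before the start are shown for CDKN1A, the member with the largest log2 difference between Erastin and DMSO in either line. They are also shown for MDM2 and CDKN2A, whose counts merge transcripts from more than 1 start. The CDKN1A start used also lies inside its gene span, which begins at chr6:36676460, so its counts can include transcripts that start upstream. Capitals mark GC boxes (the letters GGGCGG on either strand), which were searched for after the sequences had been seen and occur in the same 250 bases of 42.6% of 35116 RefSeq promoters. The CDKN1A stretch lies at chr6:36678464-36678713 on the plus strand, the MDM2 stretch, before the downstream start inside the gene, at chr12:68808774-68809023 on the plus strand, and the CDKN2A stretches, before the p16INK4a start and the ARF start, at chr9:21974858-21975107 and chr9:21995325-21995574 on the minus strand.
CDKN1A: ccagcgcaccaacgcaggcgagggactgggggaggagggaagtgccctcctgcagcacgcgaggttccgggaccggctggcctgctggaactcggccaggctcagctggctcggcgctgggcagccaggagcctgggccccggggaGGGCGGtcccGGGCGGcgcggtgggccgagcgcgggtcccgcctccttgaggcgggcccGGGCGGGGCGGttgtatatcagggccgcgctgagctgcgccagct
MDM2 downstream start: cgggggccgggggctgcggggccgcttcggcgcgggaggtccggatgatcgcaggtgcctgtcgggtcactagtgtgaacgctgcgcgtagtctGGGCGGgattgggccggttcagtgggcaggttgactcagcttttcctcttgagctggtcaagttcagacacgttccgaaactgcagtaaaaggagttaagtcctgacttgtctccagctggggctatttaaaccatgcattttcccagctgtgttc
CDKN2A p16INK4a start: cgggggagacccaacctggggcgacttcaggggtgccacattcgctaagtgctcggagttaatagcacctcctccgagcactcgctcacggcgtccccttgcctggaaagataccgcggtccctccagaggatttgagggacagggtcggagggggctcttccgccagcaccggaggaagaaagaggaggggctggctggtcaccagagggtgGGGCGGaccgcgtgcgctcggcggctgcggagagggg
CDKN2A ARF start: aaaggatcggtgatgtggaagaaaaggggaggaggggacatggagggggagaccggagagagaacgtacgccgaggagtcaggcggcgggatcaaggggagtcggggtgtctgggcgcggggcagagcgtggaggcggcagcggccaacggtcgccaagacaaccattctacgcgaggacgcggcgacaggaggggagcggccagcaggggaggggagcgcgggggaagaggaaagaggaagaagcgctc
The CDKN1A stretch is 76.4% G and C with 4 GC boxes, and the MDM2 stretch is 59.2% with 1. In the 300 bases from 250 before to 50 after the start, none of the 10 entries of these members held the C/EBP-ATF element (TGATGNAA), the cAMP response element (TGACGTCA) or the strict p53 half-site with a CATG core, all on both strands, which occur in 3.62%, 1.85% and 1.57% of the 35116 promoters. This says only that those letters are not in these windows. Looser forms of the p53 site, with other cores, were not searched for, and for CDKN1A and the others no bases outside these windows were searched. The MDM2 stretch shown is the promoter known to carry p53 response elements.

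Gene coordinates and lengths were taken from GENCODE release 44 on GRCh38. CDKN1A lies at chr6:36676460-36687337, CDKN1B at chr12:12685498-12722369, CDKN2A at chr9:21967752-21995301, CCND1 at chr11:69641156-69654474, MDM2 at chr12:68808177-68845544, TP53I3 at chr2:24077433-24085861, GADD45A at chr1:67685201-67688334 and BTG2 at chr1:203305491-203309602, with TP53INP1 on chromosome 8. The counting is per gene, over exons. CDKN1A, CDKN1B, CDKN2A, CCND1, MDM2, TP53I3 and TP53INP1 each overlap a counted gene on the opposite strand (DINOL, GPR19, CDKN2B-AS1, LTO1, CPM, FAM228B and NDUFAF6), and since the strand setting of the counting is not given in the sources used here, reads where exons overlap cannot be assigned with certainty.

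Total counts ran from 24169796 to 29835670 per sample, and no 2 replicates were copies of each other. The libraries differed in how their counts tracked GC content: the Spearman correlation across genes between GC content and a library's ratio to the mean of its line spanned -0.83 to 0.86 among the KELLY libraries, and -0.75 to 0.77 among those of SK-N-AS. In KELLY the extremes were the libraries numbered 1, at -0.83 for DMSO and 0.86 for Erastin, so values are given below also with this trend removed. All 9 adrenergic neuroblast markers were at 1 CPM (normalised counts, scaled by library size) or more in both lines, summing to between 4260 and 11100 CPM in KELLY and between 938 and 1050 CPM in SK-N-AS. The 5 mesenchymal-type markers summed to between 108 and 162 CPM in KELLY and between 2230 and 2610 CPM in SK-N-AS. Of 6 blood cell markers, CD14, CD3E, HBA1 and LYZ stayed below 1 CPM in every group. HBB, a haemoglobin gene, was at 8.08 CPM in the KELLY DMSO library numbered 1, 3.73 CPM in the KELLY Erastin library numbered 1 and 1.47 CPM in the SK-N-AS Erastin library numbered 1, and at most 0.109 CPM in the others. PTPRC, which encodes the leukocyte phosphatase CD45, had 0 counts in all 6 KELLY libraries and lay between 454 and 620 CPM in SK-N-AS.

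CDKN1A was higher in all 3 Erastin samples of KELLY, whereas its groups overlapped in SK-N-AS. In KELLY it measured 22.1, 38.8 and 31.6 CPM in DMSO and 79.6, 44.2 and 58.1 CPM in Erastin, so every Erastin sample lay above every DMSO sample. The log2 fold change was 0.98 ± 0.28 (SE, n = 3 per group), a 1.97-fold difference with an unadjusted p of 0.00878 and an adjusted p of 0.77 in edgeR's quasi-likelihood test. The difference therefore passed the limits used in the study's methods (fold of 1.5 and unadjusted p of 0.05), as did 2.03% of the 16258 genes tested. It did not pass the adjusted threshold of 0.05, which 1 gene (0.00615%) passed. The study set its fold and unadjusted p limits on DESeq2 results of protein-coding genes. Here and below they are set on edgeR results over all genes tested.

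CDKN1A is a GC-rich gene, with 58.1% G and C in its longest transcript, and its spread in KELLY followed the libraries. The lowest DMSO value and the highest Erastin value were those of the libraries numbered 1. With the GC trend removed, CDKN1A measured 30.2, 34.8 and 33.3 CPM in DMSO and 57.5, 48.4 and 56.8 CPM in Erastin. The coefficient of variation dropped from 27.1% to 7.18% in DMSO and from 29.4% to 9.32% in Erastin. Among the 9 members it dropped for 6 in KELLY DMSO and for 7 in KELLY Erastin. For the rest it rose, as for CDKN1B, from 6.42% to 8.16% in DMSO and from 3.22% to 12.4% in Erastin. On this scale CDKN1A rose by 0.73 ± 0.10 on the log2 scale, or 1.66-fold, with an adjusted p of 0.0301, where 33 genes (0.203%) were called. Leaving out 1 KELLY library at a time on this scale gave log2 fold changes from 0.68 to 0.81 and adjusted p from 0.0435 to 0.287, which passed in 1 of 6 fits, that without the Erastin library numbered 2. Without both libraries numbered 1 and with no GC correction, the difference was 0.54 ± 0.17 with an adjusted p of 0.911. Over all 23 alternatives the log2 fold change lay between 0.54 and 1.17, and adjusted p between 0.0301 and 1, passing in 2 of them.

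In SK-N-AS, CDKN1A measured 23.9, 23.3 and 19.5 CPM in DMSO and 17.1, 24.3 and 17.8 CPM in Erastin. The groups overlapped, and the log2 fold change was -0.16 ± 0.14 with an adjusted p of 0.844. The interval of 2 SE to each side, -0.44 to 0.12, lies below the KELLY estimate. The test of that difference between the lines, as an interaction term over all 12 samples, gave -1.15 ± 0.34 on the log2 scale for SK-N-AS minus KELLY, with an unadjusted p of 0.00545 and an adjusted p of 0.811. On GC-corrected counts it gave -0.88 ± 0.15 and an adjusted p of 0.0604, so the difference between the lines was not called on either scale.

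**Figure D1:**
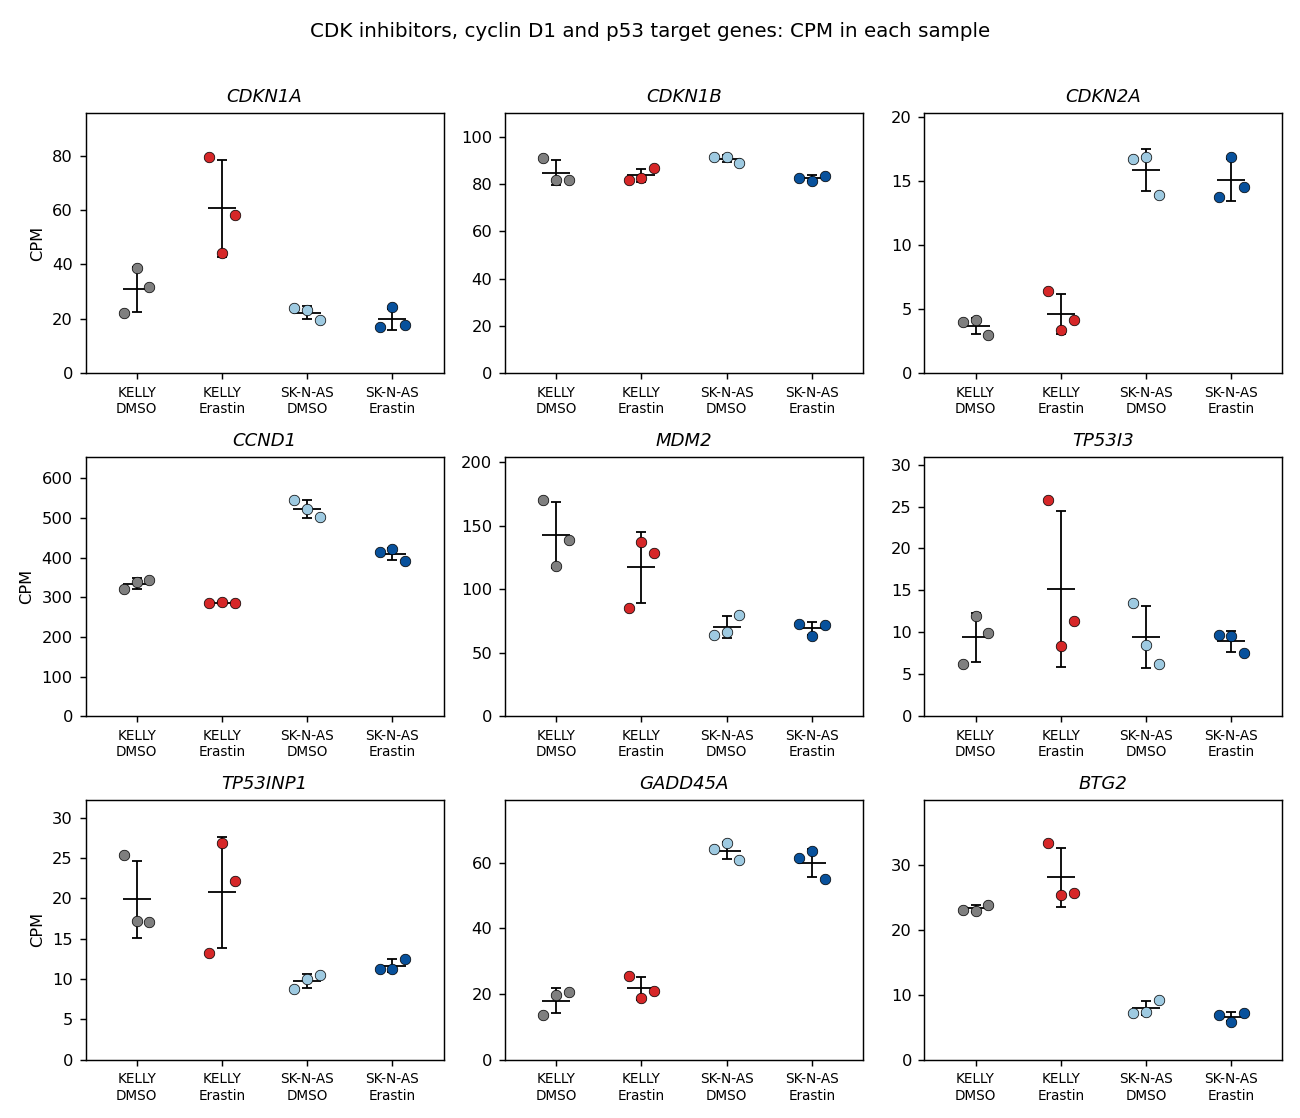
Each panel plots the CPM of 1 member on a linear axis from 0, with a point per sample in the order of replicate number, a horizontal dash at the mean and bars of 1 SD (n = 3). CDKN1A separates in KELLY, from at most 38.8 CPM in DMSO to at least 44.2 CPM in Erastin, and CCND1 separates in both lines. BTG2 also separates in both lines, in opposite directions, and CDKN1B and TP53INP1 separate in SK-N-AS. Of all genes tested, 4.2% to 7.81% separate in a given line and direction.

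**Figure D2:**
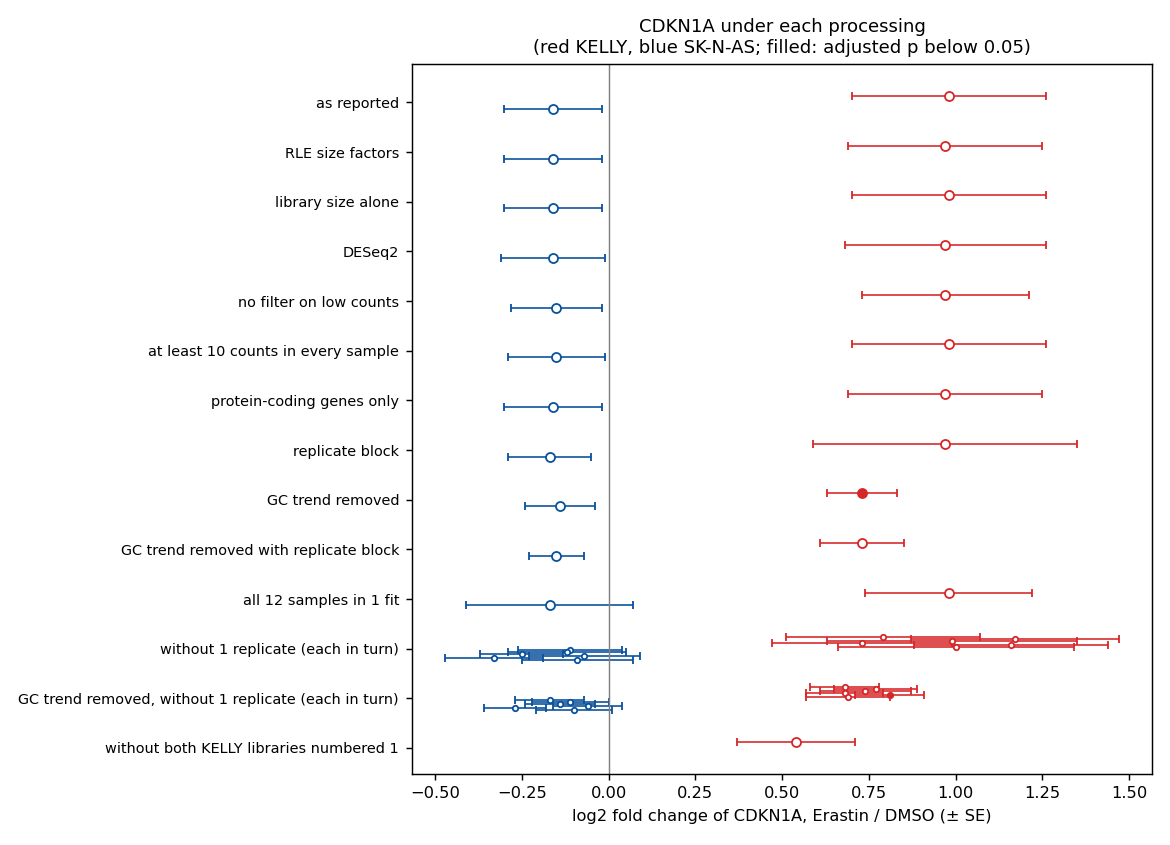
The log2 fold change of CDKN1A (Erastin over DMSO, horizontal axis, bars of 1 SE) is plotted for each processing run, with KELLY in red, SK-N-AS in blue and filled points where the adjusted p was below 0.05. KELLY values lie between 0.54, without both KELLY libraries numbered 1, and 1.17, and those of SK-N-AS between -0.33 and -0.06.

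The other CDK inhibitors among the members were not called in either line. CDKN1B, which encodes p27, measured 91.2, 81.6 and 81.9 CPM in KELLY DMSO and 81.9, 82.5 and 86.9 CPM in KELLY Erastin. These groups overlapped, with a log2 fold change of -0.02 ± 0.14 and an interval from -0.29 to 0.26. In SK-N-AS, CDKN1B measured 91.6, 91.7 and 89.1 CPM in DMSO and 82.8, 81.5 and 83.6 CPM in Erastin. Every Erastin sample lay below every DMSO sample, by -0.13 ± 0.08 on the log2 scale with an adjusted p of 0.743, and with the GC trend removed the groups overlapped, at -0.15 ± 0.06 with an adjusted p of 0.173.

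CDKN2A, the p16INK4a and ARF gene, was the lowest member in KELLY. It measured 3.96, 4.18 and 3.01 CPM in KELLY DMSO, from 86 to 103 counts, and 6.40, 3.33 and 4.13 CPM in KELLY Erastin. The KELLY groups overlapped, with a log2 fold change of 0.32 ± 0.29 that fell to 0.01 ± 0.24 with the GC trend removed. In SK-N-AS it measured 16.7, 16.9 and 13.9 CPM in DMSO and 13.8, 16.9 and 14.6 CPM in Erastin, again overlapping, at -0.06 ± 0.12.

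CCND1, the cyclin D1 gene and the most abundant member, was lower with Erastin in every sample of both lines. In KELLY it measured 320.0, 339 and 345 CPM in DMSO and 286, 287 and 286 CPM in Erastin. The log2 fold change was -0.22 ± 0.12 with an adjusted p of 0.77, and -0.27 ± 0.07 with an adjusted p of 0.514 when the GC trend was removed. In SK-N-AS it measured 545, 521 and 501 CPM in DMSO and 414, 422 and 392 CPM in Erastin. The groups stood apart by -0.34 ± 0.07 on the log2 scale, with an unadjusted p of 0.000568 and an adjusted p of 0.068 that missed the threshold. The 1.27-fold difference also missed the fold limit of the study's methods, which together with their p limit 2.67% of the 16095 genes passed.

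The same CCND1 difference was called by DESeq2 (adjusted p of 0.00617) and after removal of the GC trend (-0.35 ± 0.04, adjusted p of 0.000121, where 5.9% of genes were called). It was called in 12 of 22 alternatives, and its log2 fold change lay between -0.37 and -0.31 in all of them. The interaction was -0.13 ± 0.12 on the log2 scale with an adjusted p of 0.811, and its interval ran from -0.37 to 0.11, so no difference between the lines was detected.

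Of the p53 targets, MDM2, which feeds back on p53, was not higher with Erastin in either line. In KELLY it measured 170.2, 118 and 139 CPM in DMSO and 85.4, 137 and 129 CPM in Erastin. MDM2 is GC-poor, at 39.5%, and its highest and lowest KELLY values came from the libraries numbered 1, the reverse of CDKN1A. The log2 fold change of -0.28 ± 0.22 became -0.05 ± 0.07 with the GC trend removed, and the interval then ran from -0.19 to 0.09. In SK-N-AS the samples lay between 63.7 and 79.8 CPM in DMSO and between 63.3 and 72.8 CPM in Erastin, at -0.01 ± 0.11.

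TP53I3, which encodes the quinone oxidoreductase PIG3, measured 6.26, 12.0 and 9.93 CPM in KELLY DMSO and 25.8, 8.33 and 11.4 CPM in KELLY Erastin. A single Erastin library, number 1, stood above the rest, and the log2 fold change of 0.70 ± 0.44 was -0.15 ± 0.20 without both libraries numbered 1. In SK-N-AS it measured 13.5, 8.50 and 6.28 CPM in DMSO and 9.69, 9.59 and 7.52 CPM in Erastin, at -0.07 ± 0.23.

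TP53INP1, which encodes a stress protein of apoptosis and autophagy, measured 8.75, 10.1 and 10.5 CPM in SK-N-AS DMSO and 11.3, 11.2 and 12.6 CPM in SK-N-AS Erastin. All 3 Erastin samples lay above the DMSO samples, by 0.27 ± 0.12 on the log2 scale with an adjusted p of 0.581, or 0.26 ± 0.10 and 0.143 with the GC trend removed. In KELLY it measured 25.4, 17.2 and 17.1 CPM in DMSO and 13.2, 26.9 and 22.1 CPM in Erastin, which overlapped. The KELLY log2 fold change of 0.06 ± 0.29 moved to 0.28 ± 0.13 with the GC trend removed, neither of them called.

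GADD45A, a growth-arrest and damage-inducible gene, measured 13.6, 19.8 and 20.5 CPM in KELLY DMSO and 25.5, 18.8 and 20.9 CPM in KELLY Erastin, at 0.28 ± 0.22. In SK-N-AS it lay between 60.9 and 66.0 CPM in DMSO and between 55.1 and 63.5 CPM in Erastin, at -0.08 ± 0.09. The groups overlapped in both lines, and with the GC trend removed every SK-N-AS Erastin sample lay below the DMSO samples, at -0.08 ± 0.05 with an adjusted p of 0.435.

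BTG2, an antiproliferative p53 target, measured 23.1, 22.9 and 23.9 CPM in KELLY DMSO and 33.3, 25.3 and 25.6 CPM in KELLY Erastin. Every KELLY Erastin sample lay above the DMSO samples, with a log2 fold change of 0.27 ± 0.17. In SK-N-AS it measured 7.21, 7.35 and 9.13 CPM in DMSO and 6.89, 5.82 and 7.17 CPM in Erastin. There every Erastin sample lay below the DMSO samples, by -0.25 ± 0.15, though 7.17 and 7.21 CPM all but touch and the groups overlapped with the GC trend removed. The adjusted p was 0.77 in KELLY and 0.732 in SK-N-AS.

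**Figure D3:**
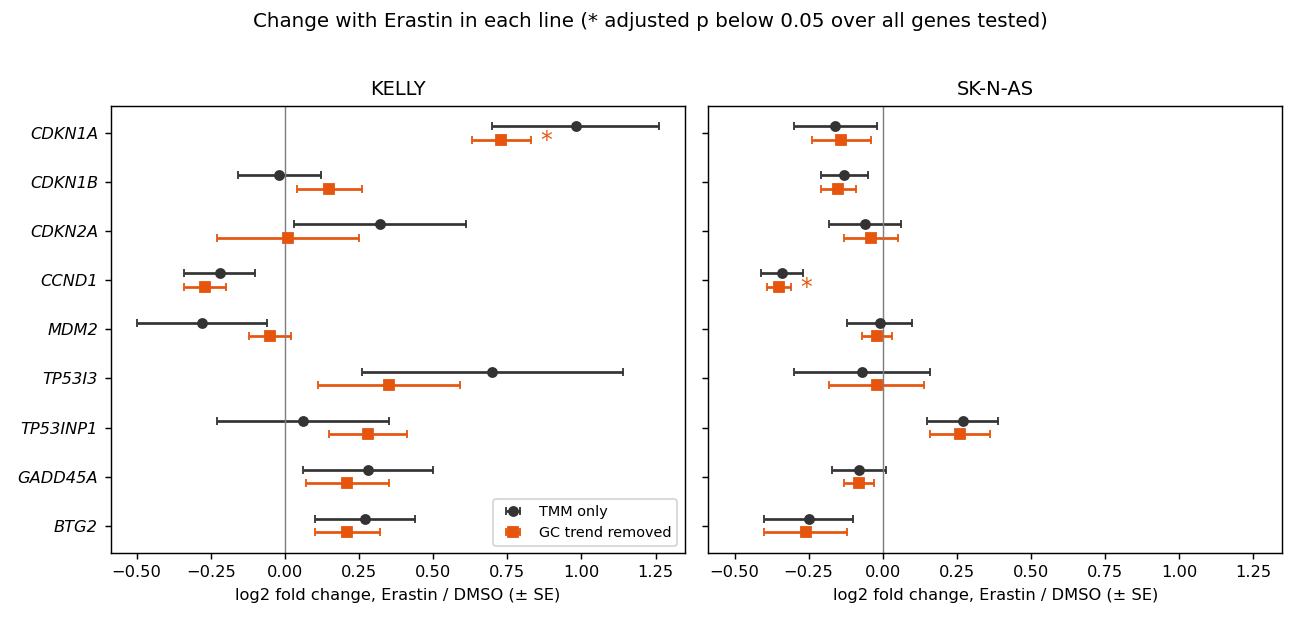
The log2 fold change of each member (Erastin over DMSO, horizontal axis, bars of 1 SE) is plotted for KELLY on the left and SK-N-AS on the right, on TMM-scaled counts (black) and with the GC trend removed (orange), with a star where the adjusted p was below 0.05. CDKN1A in KELLY, at 0.73, and CCND1 in SK-N-AS, at -0.35, are the 2 starred points, both with the GC trend removed.

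Counted over the 9 members, edgeR called 0 in KELLY at an adjusted p under 0.05, with 1 at an unadjusted p under 0.05 and 0 by DESeq2. In SK-N-AS edgeR called 0, with 1 at an unadjusted p under 0.05 and 1 by DESeq2, where edgeR called 0.659% of all genes tested. The interaction called 0 members, with 2 at an unadjusted p under 0.05 and 0 by DESeq2. There edgeR called 0.00548% of 18239 genes, or 0.0713% with the GC trend removed. In edgeR an unadjusted p of at most 0.05 was reached by 430 of 16258 genes in KELLY and 1412 of 16095 in SK-N-AS. For the interaction it was 776 of 18239. DESeq2 called 25 of 30590, 189 of 30711 and 12 of 34956 genes in the same order. DESeq2 totals here and below are genes with an unadjusted p, including any that its own filter on low counts left without an adjusted p. In KELLY the groups did not overlap for 2 members that were higher with Erastin, CDKN1A and BTG2, and for 1 that was lower, CCND1, where 4.2% and 4.34% of all genes tested separated in these directions. In SK-N-AS 1 member was higher without overlap, TP53INP1, and 3 were lower, CCND1, CDKN1B and BTG2, beside 6.98% and 7.81%. The median log2 fold change of the members was 0.27 in KELLY and -0.08 in SK-N-AS, beside 0.005 and -0.009 over all genes tested. Cell state markers in KELLY, with 0 of them called, had a median log2 fold change of 0.35 for the 9 adrenergic markers, 8 of them above 0, and -0.31 for the 5 mesenchymal-type markers, all below 0. On GC-corrected counts these medians were 0.05 and -0.16, and that of the members was 0.21. The part of cell state in the members' values was not tested.

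The wider p53 network was read from lists of regulators and targets. Of 26 other p53 target genes, the KELLY fit tested 25 and that of SK-N-AS 24. In KELLY edgeR called 0 of them and DESeq2 called 1, beside 25 of 30590 genes in DESeq2. An unadjusted p under 0.05 in edgeR was reached by 2 of them, beside 430 of all 16258 genes. The log2 fold changes of these targets ran from -0.31 to 1.90 with a median of 0.05, 14 above 0 and 11 below. With the GC trend removed edgeR called 1 of them, beside 0.203% of all genes tested. On that scale 5 had an unadjusted p under 0.05, beside 1102 of 16258 genes. Their median was then 0.12, with 19 above 0 and 6 below. In SK-N-AS 2 rose and 0 fell, where edgeR called 0.659% of all genes tested, and the median was 0.02. With the GC trend removed 3 rose and 0 fell there, beside 5.9% of all genes tested. On that scale 8 had an unadjusted p under 0.05, beside 3234 of 16095 genes. The 2 called on uncorrected counts were SESN2 and PMAIP1. SESN2, a sestrin that restrains mTORC1, rose by 1.47 ± 0.16 on the log2 scale (adjusted p of 0.000416). PMAIP1, which encodes the BH3-only protein NOXA, rose by 1.15 ± 0.12 (adjusted p of 0.000416). Both are known targets of ATF4 as well as of p53. In KELLY, SESN2 differed by 1.70 ± 0.26 with an adjusted p of 0.341, and by 1.44 ± 0.10 with an adjusted p of 0.000922 when the GC trend was removed, while PMAIP1 differed by 0.21 ± 0.28.

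Of 4 stress response genes, edgeR called 3 in SK-N-AS, all higher, and 0 in KELLY, or 2 in KELLY with the GC trend removed. The shares of all genes called were 0.659%, 0.00615% and 0.203%, in the same order. In SK-N-AS, ATF4, the transcription factor of the integrated stress response, rose by 1.51 ± 0.09 on the log2 scale. CHAC1, a glutathione-degrading enzyme and ATF4 target, rose there by 4.56 ± 0.23, and TRIB3, a pseudokinase, rose by 1.06 ± 0.13. DDIT3, which encodes the transcription factor CHOP, differed by 0.54 ± 0.18 in SK-N-AS and 0.75 ± 0.41 in KELLY, with adjusted p of 0.343 and 0.77. In KELLY the values were 0.81 ± 0.19 for ATF4, 2.94 ± 0.30 for CHAC1 and 0.60 ± 0.18 for TRIB3, with adjusted p of 0.77, 0.0903 and 0.77. With the GC trend removed, ATF4 in KELLY rose by 0.61 ± 0.08 (adjusted p of 0.0248) and CHAC1 by 2.57 ± 0.14 (adjusted p of 0.000202), while TRIB3 differed by 0.28 ± 0.14 (adjusted p of 0.722). Their part in the CDKN1A difference was not tested.

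Of 10 p53 regulators, the KELLY fit held 9 and that of SK-N-AS 8, and edgeR and DESeq2 called 0 of these. In edgeR 0 of them had an unadjusted p under 0.05, or 1 in each line with the GC trend removed. On that scale 1102 of 16258 genes reached it in KELLY and 3234 of 16095 in SK-N-AS. The remaining CDK inhibitors (4 listed), the G1 cyclins, kinases and pocket proteins (12 listed) and the relatives of GADD45A, BTG2 and TP53INP1 (7 listed) had 0 calls by edgeR in either line and 0 by DESeq2, with 1 of them, in KELLY, at an unadjusted p under 0.05. The medians of these 3 lists were 0.31, -0.16 and 0.06 in KELLY and 0.03, -0.06 and 0.06 in SK-N-AS. On GC-corrected counts the KELLY medians were -0.08, 0.00 and 0.11.

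The larger differences lay between the lines themselves. In DMSO, 6 of the 9 members differed between SK-N-AS and KELLY at an adjusted p under 0.05, 3 in each direction, a share to be read beside the 61.3% of 17089 genes that differed. After GC correction 7 members were called, beside 73.0% of genes. Higher in SK-N-AS were CDKN2A, GADD45A and CCND1. Lower were BTG2, MDM2 and TP53INP1.

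CDKN2A was 4.22-fold higher in SK-N-AS, by 2.08 ± 0.20 on the log2 scale (adjusted p of 2.7e-05). GADD45A was higher by 1.81 ± 0.18 (adjusted p of 3.92e-05) and CCND1 by 0.63 ± 0.11 (adjusted p of 0.00112). BTG2 was lower in SK-N-AS by -1.57 ± 0.17 (adjusted p of 4.67e-05), MDM2 by -1.04 ± 0.17 (adjusted p of 0.000775) and TP53INP1 by -1.04 ± 0.21 (adjusted p of 0.00214). These 6 were called under all 16 alternatives run for this comparison.

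The remaining members were not called between the lines. CDKN1A was lower in SK-N-AS by -0.48 ± 0.22 with an adjusted p of 0.0822. With the GC trend within each line removed it was lower by -0.59 ± 0.09, with an adjusted p of 0.000249. Without the KELLY DMSO library numbered 1 it was lower by -0.68 ± 0.16 with an adjusted p of 0.00196. CDKN1B differed by 0.08 ± 0.12, with an interval from -0.17 to 0.33, and TP53I3 by -0.01 ± 0.33, with an interval from -0.66 to 0.65.

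**Figure D4:**
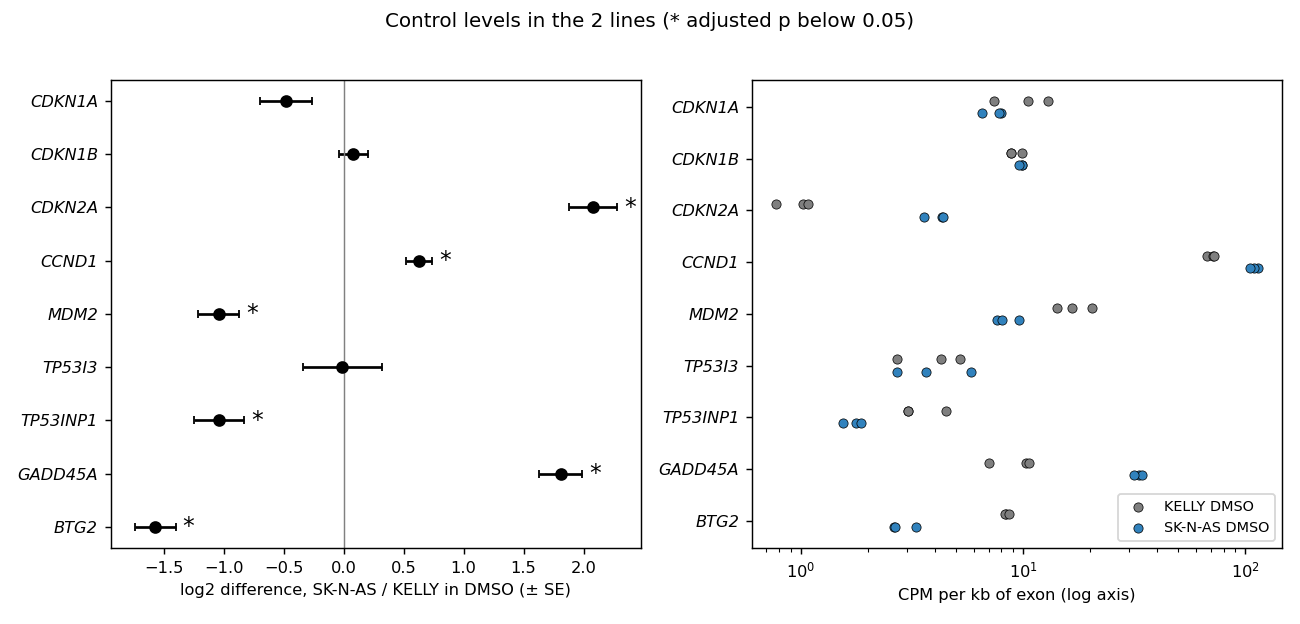
The left panel plots the log2 difference in DMSO (SK-N-AS over KELLY, bars of 1 SE) with a star where the adjusted p was below 0.05, and the right panel plots the CPM per kb of exon of each control sample on a log axis. CDKN2A, at 2.08, and GADD45A, at 1.81, stand farthest to the right, and BTG2, at -1.57, farthest to the left.

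Levels of different genes were compared per kb of exon. In KELLY DMSO the order was CCND1 at 70.3 ± 2.75 CPM per kb (SD, n = 3), MDM2 at 17.2 ± 3.14, CDKN1A at 10.3 ± 2.79, GADD45A at 9.34 ± 1.98, CDKN1B at 9.17 ± 0.589, BTG2 at 8.45 ± 0.183, TP53I3 at 4.07 ± 1.26, TP53INP1 at 3.53 ± 0.841 and CDKN2A at 0.957 ± 0.161. CDKN1A, GADD45A, CDKN1B and BTG2 lay within their spread of each other, as did TP53I3 and TP53INP1. In SK-N-AS DMSO, CCND1 led at 110 ± 4.61 CPM per kb, followed by GADD45A at 33.1 ± 1.34, CDKN1B at 9.81 ± 0.154, MDM2 at 8.43 ± 1.03, CDKN1A at 7.43 ± 0.787, TP53I3 at 4.08 ± 1.61, CDKN2A at 4.08 ± 0.427, BTG2 at 2.86 ± 0.389 and TP53INP1 at 1.73 ± 0.163. There MDM2 and CDKN1A lay within their spread of each other, and so did TP53I3 and CDKN2A, and TP53I3 and BTG2.

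Around CDKN2A on 9p21, the neighbouring genes were read beside it. MTAP, a purine salvage enzyme next to CDKN2A, was not called between the lines in DMSO, at -0.14 ± 0.17 on the log2 scale and an interval from -0.48 to 0.21. CDKN2B, which encodes p15INK4b, had 0, 5 and 3 counts in KELLY DMSO and 35, 37 and 28 counts in SK-N-AS DMSO, a fitted log2 difference of 3.57 ± 0.63 (adjusted p of 0.00108) that rests on very few KELLY counts. CDKN2B-AS1 and DMRTA1 were not tested, with means of 3.33 and 0 counts in KELLY DMSO and of 2.33 and 0.667 counts in SK-N-AS DMSO.

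Partners of the members were also compared between the lines. MDM4, the relative of MDM2 that also restrains p53, differed by -0.51 ± 0.20 on the log2 scale (SK-N-AS over KELLY, in DMSO) with an adjusted p of 0.0572. Of the kinases that cyclin D1 binds, CDK4 was higher in SK-N-AS by 0.94 ± 0.24 and CDK6 lower by -1.10 ± 0.20 (adjusted p of 0.00758 and 0.00141). CCND3, the cyclin D3 gene, was higher by 1.63 ± 0.30 (adjusted p of 0.00154), and CCND2, the cyclin D2 gene, had 0 counts in all 12 samples, which allows up to 3 counts in each.

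Over the lists, 12 of the 25 other p53 target genes tested were lower in SK-N-AS DMSO and 3 were higher, where 30.9% and 30.3% of all genes were called in these directions, with a median log2 difference of -0.53 beside -0.024 over all genes. The median was also -0.53 with the 1 gene at or under 3 counts in a line set to its bound. Of the 9 p53 regulators tested, 6 were lower and 0 higher, beside the same shares and 61.3% of genes called in all.

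The 5 genes whose levels ran most like CDKN1A were found by Pearson's correlation of log2 CPM, centred within each line, over 12 samples and 11662 genes. They were TBL2 (r of 0.980), ANKRD16 (0.975), SUMF2 (0.966), AKIP1 (0.960) and MMP17 (0.959). On the GC-corrected scale these correlations were 0.948, 0.911, 0.939, 0.887 and 0.785, at ranks 2, 5, 3, 15 and 139, so the order depends on the scale. The points share 12 libraries and their GC trends, and among the members the correlation with CDKN1A was 0.867 for GADD45A, 0.788 for TP53I3 and -0.864 for MDM2, or 0.697, 0.412 and -0.411 with the trend removed. For CDKN1B it turned from -0.192 to 0.601 and for TP53INP1 from -0.526 to 0.376.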

How the data were processed

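RNA-seq counts of 12 samples (2 lines, 2 treatments, 3 replicates each, described as biological triplicates) were used. Reads were mapped by the authors to GRCh38 and summarised over genes by HTSeq, and the deposited values are raw counts; the submitters' processing notes also name Trimmomatic and DESeq2. The 9 members and the other lists were chosen with earlier results of these data known.

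Counts were fitted over all genes with edgeR 4.0.16 (quasi-likelihood test, filterByExpr, TMM, R 4.3.3) per line, over 12 samples for the interaction and over 6 DMSO samples between lines, and p was adjusted by Benjamini-Hochberg with a threshold of 0.05. SE is the log2 fold change over the root of F. The GC trend was a loess curve per library (span 0.5, degree 2) used as an offset, for genes matched to GENCODE release 44. It was fitted to the library's ratio to the mean of its line, against the GC content of each gene's longest transcript. Alternatives were DESeq2 1.42.0, RLE or library-size scaling, other filters, a replicate block, GC removal, 12 samples in 1 fit and single replicates left out; GC removal with a replicate left out and the fit without both KELLY libraries numbered 1 were added after seeing the data. Named genes are all members, list genes called within a line or in the interaction, 9p21 neighbours, MDM4, CDK4, CDK6, CCND2, CCND3, and the 5 genes most correlated with CDKN1A; 1 further gene of this rule is not reported here. The edgeR fit of each comparison, without GC removal or block, was also tested on simulated counts in which 200 genes had known changes. DESeq2, GC removal and the replicate block were not tested in this way.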

Additional observations from a re-analysis of the deposited data

Results flagged for a closer look

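BTG2 was flagged because its samples moved in opposite directions in the 2 lines: every Erastin sample lay above the DMSO samples in KELLY and below them in SK-N-AS. The interaction term, SK-N-AS minus KELLY, was -0.52 ± 0.22 on the log2 scale, with an unadjusted p of 0.0334 and an adjusted p of 0.811 in edgeR's quasi-likelihood test. With the GC trend removed it was -0.47 ± 0.19 with an adjusted p of 0.591, and the SK-N-AS groups then overlapped. Groups of 3 samples are too small for the search for single outlying samples.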

How the results depend on the processing

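The number of members called rested on the processing in both lines. In KELLY it was 0 and became 1 (CDKN1A) with the GC trend removed, in 1 of 6 such fits with a replicate left out, and under the threshold of the study's methods. In SK-N-AS it was 0 and became 1 (CCND1) with DESeq2, with no filter on low counts, with the replicate block, with the GC trend removed, with that and the block, and without 1 replicate (range 0 to 1), and it was 1 to 2 over GC removal with a replicate left out, the second being CDKN1B without the DMSO library numbered 3 (-0.21 ± 0.05, adjusted p of 0.0146 by edgeR). For the interaction it was 0, and 1 under the methods' threshold and in 2 of 12 fits with GC removal and a replicate left out. Between lines in DMSO it was 6, and it stayed within 1.5 times that. Over all genes tested in SK-N-AS, edgeR called 106 of 16095 as reported and 308 with the block. With the GC trend removed it called 950, and 1592 with the block added. DESeq2 called 189 of 30711, and the fit with no filter 265 of 30711. There were 1221 of 16433 with GC removal and without the DMSO library numbered 3. The methods' threshold was passed by 330 of 16258 genes in KELLY and 644 of 18239 in the interaction.

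CDKN1A passed the threshold in KELLY with the GC trend removed (0.73 on the log2 scale) and in 1 of 6 fits on that scale with a replicate left out (0.68 to 0.81). Its interaction passed on that scale without the Erastin library numbered 2 of SK-N-AS (-1.02) or of KELLY (-0.96). Between lines in DMSO it passed with the GC trend within each line removed (-0.59), and with the replicate block added to that (-0.58). It also passed without the KELLY DMSO library numbered 1 (range -0.68 to -0.29). In the 12 single-replicate fits of the interaction it stayed between -1.35 and -0.90.

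Sign changes occurred in 59 values, none of them called, all of members other than CDKN1A, CCND1 and BTG2. With the GC trend removed, alone or with the block, CDKN1B in KELLY was 0.15 and TP53INP1 in the interaction was -0.04 or -0.03, and TP53I3 in SK-N-AS was 0.00 with both. Without both KELLY libraries numbered 1, MDM2 and CDKN1B were 0.05, TP53I3 -0.15 and GADD45A -0.02 in KELLY, and the interaction was -0.05 for MDM2, 0.08 for TP53I3 and -0.25 for TP53INP1. Between lines in DMSO, TP53I3 was 0.01 with RLE size factors, no filter or 12 samples in 1 fit, and 0.03 with DESeq2. When 1 replicate was left out, the ranges in KELLY were -0.05 to 0.04 for CDKN1B and -0.17 to 0.30 for TP53INP1, in SK-N-AS -0.07 to 0.10 for MDM2, -0.14 to 0.00 for CDKN2A and -0.29 to 0.29 for TP53I3, in the interaction -0.05 to 0.42 for TP53INP1, and between lines -0.35 to 0.23 for TP53I3. With the GC trend removed and 1 replicate left out, the reversed values in KELLY were 0.05, 0.10, 0.13, 0.14, 0.21 and 0.24 for CDKN1B and -0.16, -0.09 and -0.06 for CDKN2A. In SK-N-AS they were 0.02 for MDM2, 0.00 and 0.01 for CDKN2A, and 0.06 and 0.22 for TP53I3. In the interaction they were -0.01 in 2 fits for MDM2, 0.02 and 0.09 for CDKN2A, and, in 10 of 12 fits for TP53INP1, -0.14, -0.08, -0.08, -0.07, -0.06, -0.05, -0.04, -0.02, -0.01 and -0.01. The cause of these changes was not tested. Fits with replicates left out also held fewer samples.

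Whether equal replicate numbers mark paired samples could not be told from the counts. Deviations of same-numbered libraries correlated at -0.76, -0.79 and -0.12 between the KELLY groups and at -0.10, 0.20 and 0.34 between the SK-N-AS groups. These values also carry the GC trends of the libraries. With the trend removed they were -0.39, -0.47 and 0.04 in KELLY and 0.01, 0.15 and 0.12 in SK-N-AS. The replicate block called CCND1 in SK-N-AS (adjusted p of 0.00836) and changed no other member's call on uncorrected counts, with CDKN1A in KELLY at 0.97 ± 0.38. With the GC trend removed, adding the block ended the call of CDKN1A in KELLY (0.73 ± 0.12, adjusted p of 0.604 against 0.0301) and changed no other member's call. With 3 samples a group the biological coefficient of variation was 0.246 in KELLY, 0.144 with the GC trend removed, and 0.105 in SK-N-AS.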
